A study of Mus musculus with 14 samples.

Results

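To describe H3K27me3 at the Iroquois homeobox genes after NeuID knockdown, all deposited peaks within 20 kb of the body of Irx1, Irx2, Irx3, Irx4, Irx5 or Irx6 were collected. The rule gave 57 peaks of the 23668 in the deposited list, 35 on chromosome 13 (13 at Irx1, 15 at Irx2 and 7 at Irx4) and 22 on chromosome 8 (6 at Irx3, 10 at Irx5 and 6 at Irx6). The mark had been mapped by sequencing of immunoprecipitated chromatin (ChIP-seq) from primary hippocampal neurons taken from CD1 mouse embryos of mixed sex litters and grown in culture. All cultures carried the wild-type genotype (WT in the labels), and both groups received lipid nanoparticles holding antisense LNA gapmers, short oligomers that pair with an RNA and lead to its cleavage. The control group received a negative control gapmer and the NeuID knockdown group a gapmer against the long noncoding RNA NeuID, with 6 ChIP libraries and 1 input library labelled for each group. Whether the libraries of a group came from separate cultures or litters is not given in the labels.

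Irx proteins are transcription factors of the TALE homeobox class, which pattern the embryonic nervous system, heart, limb and retina. In mammals they lie in a pair of clusters that arose by duplication, with Irx1, Irx2 and Irx4 in one and Irx3, Irx5 and Irx6 in the other. Polycomb repressive complex 2 trimethylates lysine 27 of histone H3, and broad domains of this mark (H3K27me3) cover many developmental transcription factor genes in cells that do not use them. Such domains often begin at CpG-rich gene starts.

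The deposited values are the authors' log2 means of normalized reads per peak for each group and over all libraries. Values of single libraries were not analysed here, so no mean below has an SD, no difference could be set against the spread between replicates, and none was tested. A difference is the knockdown minus the control log2 mean, so that -1 stands for a knockdown mean at 2-fold lower reads, and sums of reads were taken after the log2 means were turned back into reads. The overall means gave the control a weight of 0.545, which matches 6 control and 5 knockdown libraries rather than the 6 and 6 of the labels. This weight was the same in all 20633 peaks from which it was solved, and groups of equal size would not give it. A legend of the study gives yet another count, 5 in each group. The means thus match neither the labels nor the legend, and the reason is not given. Over all peaks, the summed knockdown reads were 97.1% of the control, the median difference was -0.02, and the total reads of each library were not analysed here. In a culture of many cells, fewer cells carrying the mark and less mark per cell cannot be told apart. No peak covered the start of any of 7 neuronal marker genes (Rbfox3, Tubb3, Map2, Syn1, Snap25, Camk2a and Neurod6), where 5.19% of all protein-coding starts were covered, though the same windows held 13 peaks at Rbfox3, 3 at Tubb3 and 1 each at Map2, Snap25 and Camk2a. H3K27me3 gives no expression level and so does not identify the cells.

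To show the marked DNA, 3 pairs of stretches from these loci were read from GRCm38.p6 (the assembly of mm10), on the plus strand, with every CG dinucleotide in capitals. The first pair precedes the starts of Irx2 (chr13:72628570-72628819) and Irx4 (chr13:73260247-73260478), which lie under a strong peak each, and comes from the RefSeq promoter table, where 3 of the 6 genes (Irx2, Irx3 and Irx4) were matched and the Irx3 window fell inside the annotated gene.
Irx2 promoter: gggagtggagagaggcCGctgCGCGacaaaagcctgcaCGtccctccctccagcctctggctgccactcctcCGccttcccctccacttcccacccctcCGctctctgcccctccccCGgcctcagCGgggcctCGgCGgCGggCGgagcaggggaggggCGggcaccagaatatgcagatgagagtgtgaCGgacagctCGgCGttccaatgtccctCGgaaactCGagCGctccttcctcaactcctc
Irx4 promoter: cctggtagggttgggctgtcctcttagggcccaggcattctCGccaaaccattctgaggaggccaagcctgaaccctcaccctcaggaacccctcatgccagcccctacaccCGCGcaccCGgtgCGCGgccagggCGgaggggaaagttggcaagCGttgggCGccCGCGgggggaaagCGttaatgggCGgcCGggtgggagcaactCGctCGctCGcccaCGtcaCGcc
The next pair is the complete sequence of the 2 peaks whose control mean was listed at 0, chr13:73272531-73272775 near Irx4 and chr8:92657368-92657569 near Irx6.
Irx4 peak listed at 0 in the control: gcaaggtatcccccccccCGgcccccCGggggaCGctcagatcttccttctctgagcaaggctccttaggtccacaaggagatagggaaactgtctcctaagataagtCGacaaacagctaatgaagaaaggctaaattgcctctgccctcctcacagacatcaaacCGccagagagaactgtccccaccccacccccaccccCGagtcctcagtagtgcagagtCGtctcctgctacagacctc
Irx6 peak listed at 0 in the control: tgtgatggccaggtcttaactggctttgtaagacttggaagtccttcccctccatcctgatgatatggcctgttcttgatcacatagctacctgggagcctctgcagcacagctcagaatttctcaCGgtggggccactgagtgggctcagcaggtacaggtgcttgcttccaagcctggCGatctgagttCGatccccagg
The last pair is the central 200 bases of the strongest peaks of Irx1 (chr13:71967613-71967812) and Irx5 (chr8:92365337-92365536), the 2 member peaks with the most reads.
Irx1 strongest peak, centre: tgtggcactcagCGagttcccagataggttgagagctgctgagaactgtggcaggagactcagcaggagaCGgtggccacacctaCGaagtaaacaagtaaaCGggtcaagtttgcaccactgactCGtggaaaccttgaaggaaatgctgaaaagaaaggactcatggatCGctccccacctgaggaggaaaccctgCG
Irx5 strongest peak, centre: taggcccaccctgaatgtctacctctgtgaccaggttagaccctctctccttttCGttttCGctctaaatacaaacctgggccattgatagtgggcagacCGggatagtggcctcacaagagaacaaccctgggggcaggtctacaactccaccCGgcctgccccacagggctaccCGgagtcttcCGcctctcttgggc
The promoter stretches of Irx2 and Irx4 held 19 CG each, the Irx4 and Irx6 peaks listed at 0 held 7 and 3, and the centres of the strongest Irx1 and Irx5 peaks held 7 and 6. CG is its own reverse complement, so both strands give the same count. Of 32851 promoters in the table, 92.1% held at least 1 CG over the length of the Irx2 stretch and 80.3% held fewer than it did. For the Irx4 stretch these shares were 91.1% and 83.5%. Among peaks long enough for a window of the same length, 90.0% held a CG at the length of the Irx4 peak listed at 0, 86.2% at that of the Irx6 peak and 86.0% at 200 bases. The shares with fewer CG were 78.2% for this Irx4 peak, 51.1% for the Irx6 peak, and 83.6% and 79.5% for the Irx1 and Irx5 centres. The Irx1 centre, with 7 CG in 200 bases, was richer than its whole peak, which had 1.01 per 100 bases.

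Of the 55 Irx peaks with both groups above 0, 48 lay within 2-fold of the control in the knockdown mean. Of the rest, 4 (7.27%) were at least 2-fold lower in the knockdown mean, where the background over all 22097 such peaks was 18.5%, and 3 (5.45%) were at least 2-fold higher, where the background was 18.4%. No Irx peak was listed at 0 in the knockdown (background 3.35%), and 2 of 57 were listed at 0 in the control (background 3.28%). The median difference was -0.16, against -0.02 over all peaks, and the median size of the difference without its sign was 0.39 against 0.72. The knockdown mean was the lower of the pair in 32 peaks and the higher in 23, where the counts over all peaks were 11229 and 10868. Summed over the 57 peaks, the control mean came to 2075 normalized reads and the knockdown mean to 1889.8, or 91.1% of the control. The sign of the median depended on the choice of peaks. Over the 32 peaks with an overall log2 mean of at least 4 it was 0.02. Over the 23 weaker ones with both groups above 0 it was -0.39. It was -0.16 over the 13 peaks at least 2 kb wide and -0.26 with peaks overlapping the gene bodies alone.

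**Figure D1:**
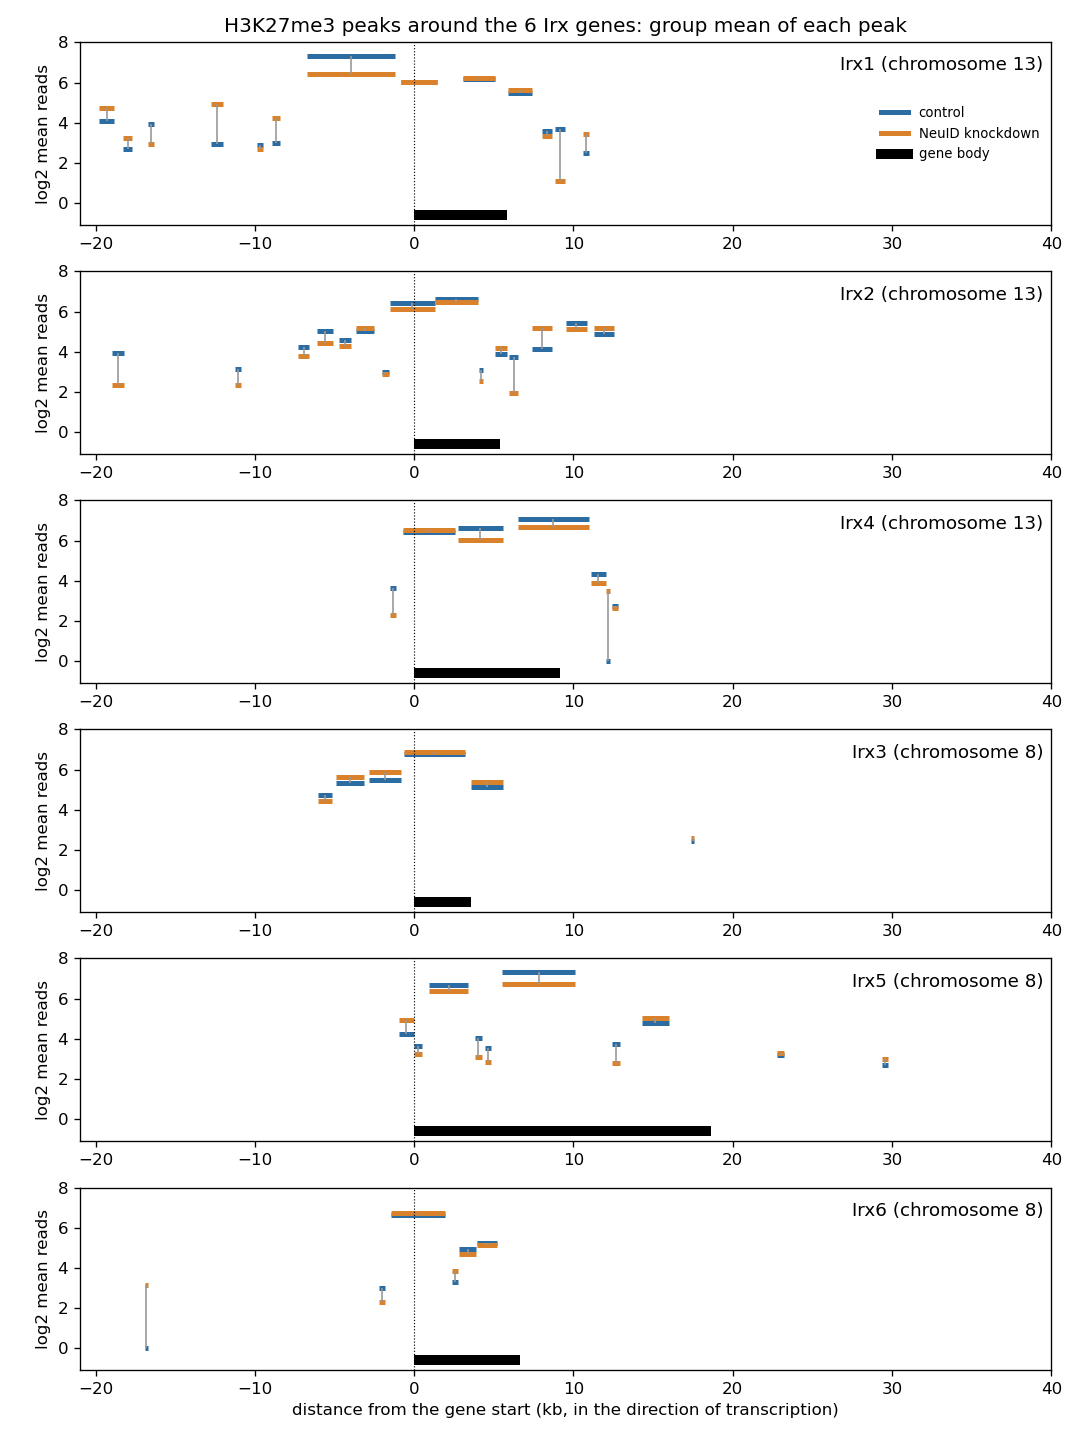
Authors' log2 mean of normalized reads (vertical axis) for each peak around the 6 Irx genes, against distance from the gene start in kb in the direction of transcription. Each horizontal bar spans a peak, blue for the control and orange for the NeuID knockdown, and a grey line joins the pair; the black bar is the gene body. The tallest bars lie over and next to the genes, and at Irx1, Irx2, Irx4 and Irx5 the blue bar of the tallest peak stands above the orange one.

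Irx1 (chr13:71957921-71963723, minus strand), a gene active in the embryonic limb and lung, had the most uneven peaks. The peak over its start (chr13:71962282-71964546) had means of 6.05 in the control and 6.04 in the knockdown, so the groups were alike there. Its neighbour 1227 bp upstream of the start (chr13:71964950-71970475), intergenic and at 5526 bp the widest member peak, had 7.34 in the control and 6.44 in the knockdown, a difference of -0.90, or 161.9 against 86.6 reads. The lowest and highest differences of the whole family lay further out. In an intron of the noncoding gene Gm40999, downstream of Irx1, chr13:71954261-71954859 had 3.70 in the control and 1.10 in the knockdown, the lowest difference of any member (-2.59). At 12007 bp upstream, chr13:71975730-71976474 had 2.93 in the control and 4.93 in the knockdown, the highest difference (2.01). With another upstream peak at chr13:71972131-71972678 (2.97 and 4.24), 1 of the 13 Irx1 peaks was at least 2-fold lower and 2 were at least 2-fold higher. The summed knockdown reads were 91.7% of the control (437 and 400.4), but the widest peak held 37.1% of the control reads, and without it the remaining peaks summed to 114% of the control.

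Irx2 (chr13:72628820-72634198, plus strand), which takes part in cerebellar patterning, had 11 peaks with the lower mean in the knockdown and 4 with the higher. Over all peaks with both groups above 0 these counts were 11229 and 10868. Its start peak (chr13:72627302-72630099, 2798 bp), which also covers the start of the noncoding gene Gm20554, had 6.40 in the control and 6.11 in the knockdown. The strongest Irx2 peak lay 1 base further on, at chr13:72630101-72632827 over coding exons and untranslated sequence, with 6.62 in the control and 6.46 in the knockdown. The 3 peaks past 2-fold lay away from the start. The peak chr13:72634793-72635368 just downstream of the gene had 3.74 in the control and 1.94 in the knockdown, chr13:72609859-72610608 far upstream had 3.93 and 2.34, and chr13:72636233-72637455 downstream went the other way with 4.12 and 5.18. The sum over the 15 peaks was 450.2 reads for the control and 402 for the knockdown (89.3%), and it stayed at 89.3% without the strongest peak.

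Irx4 (chr13:73260479-73269608, plus strand), a regulator of ventricular identity in the heart, had 7 peaks, 3 of which were at least 2 kb wide. Its start peak (chr13:73259771-73263026) had 6.45 in the control and 6.54 in the knockdown. Along the gene the order turned. The next peak, chr13:73263228-73266030, had a control mean of 6.63 and a knockdown mean of 6.04, and the widest, chr13:73266965-73271475 (4511 bp, reaching past the end of the gene), had 7.10 and 6.67. A 401 bp peak 1149 bp upstream of the start (chr13:73258930-73259330) had 3.65 and 2.28, the lowest difference at this gene (-1.36). The 245 bp peak chr13:73272531-73272775, printed above, was listed at 0 in the control and at 3.50 in the knockdown. Its overall mean (2.36) left 0.00 reads for the control, so no fold is given. Summed Irx4 reads came to 363 (control) and 298 (knockdown) (82.2%), and 86.8% without the widest peak.

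Irx3 (chr8:91798525-91802067, minus strand), which helps set progenitor domains in the neural tube, had the largest share of peaks higher in the knockdown mean, 5 of 6. Over all 22097 peaks with both groups above 0, 10868 were higher. The start peak (chr8:91798869-91802699, 3831 bp) covers nearly the entire gene and the start of the antisense gene Irx3os, and had a control mean of 6.79 and a knockdown mean of 6.87. The highest difference was 0.40, at chr8:91802894-91804916 in Irx3os (5.49 and 5.89), and the lowest was -0.31, at chr8:91807218-91808079 (4.72 and 4.41). Thus all Irx3 peaks lay in a narrow range. Summed reads came to 263 (control) and 294 (knockdown) (112%), and 116% without the start peak.

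Irx5 (chr8:92357625-92376286, plus strand), which acts in heart and retinal bipolar cells, was the only one of the 6 genes with no peak over its start. The start lay in a 23-base gap between chr8:92356642-92357618, which ended 7 bases before it and had a control mean of 4.24 and a knockdown mean of 4.94, and chr8:92357642-92358125, which began 17 bases after it and had 3.64 and 3.25. The first of these had the highest difference at Irx5 (0.70). The strongest of all member peaks by overall mean (7.07) lay in an annotated Irx5 intron (chr8:92363158-92367715, 4558 bp), with 7.32 in the control and 6.70 in the knockdown, or 159.9 against 104.2 reads. A second strong peak over coding and untranslated exons (chr8:92358560-92361011) had 6.66 and 6.40, and the lowest difference (-0.94) was at chr8:92361418-92361854, with 4.03 and 3.09. Summed reads came to 377 (control) and 302 (knockdown) (80.0%), the lowest share among the 6 genes. Without the intronic peak, which held 42.4% of the control reads, the share was 91.0%.

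Irx6 (chr8:92674288-92680956, plus strand), known from retinal bipolar cells, had the least H3K27me3 in its window. Its start peak (chr8:92672841-92676224) had means of 6.62 (control) and 6.71 (knockdown) and held 53.2% of the control reads of the gene. The remaining 5 peaks were weaker, with the lowest difference at chr8:92672096-92672482 upstream (2.98 and 2.29, -0.69) and the highest at chr8:92676656-92677032 in coding sequence (3.31 and 3.86, 0.55). The 202 bp peak chr8:92657368-92657569, printed above, was listed at 0 in the control and at 3.15 in the knockdown. Its overall mean (2.16) left 0.77 reads for the control, below the 1 read at which a mean is listed at 0. Summed reads came to 185.0 (control) and 194 (knockdown) (105%).

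Between the clusters, all 7 peaks past 2-fold lay on chromosome 13. Of 34 chromosome 13 peaks with both groups above 0, 4 (11.8%) were lower and 3 (8.82%) higher. Of 21 on chromosome 8 none was past 2-fold in either direction, with a range from -0.94 to 0.70. Over all peaks the shares were 18.5% lower and 18.4% higher, above those of both clusters. The absence on chromosome 8 was limited to the gene windows. Between them, 11 of 45 chromosome 8 peaks (24.4%) were lower and 9 higher. Within the gene windows, the median difference was -0.22 on chromosome 13 and 0.06 on chromosome 8. Summed reads came to 1249 (control) and 1100.2 (knockdown) on chromosome 13 (88.1%) and 825 and 789.6 on chromosome 8 (95.7%). The groups' order on chromosome 8 depended on the choice of peaks. Without the strongest Irx5 peak its sum was 103% of the control, and with peaks overlapping the gene bodies alone the sum was 87.4% and the median difference -0.26. With windows of 5 kb the median difference was -0.03. On chromosome 13 the sum without the strongest Irx1 peak was 93.2%. The 2 clusters had nearly equal control levels per length, 27.7 reads per kb of peak each, and 24.4 and 26.5 in the knockdown. Whether the clusters differed from each other was not tested, since each is known only by its group means.

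By control reads per kb of peak, the genes stood in the order Irx5 (30.5), Irx4 (29.0), Irx2 (28.0), Irx6 (27.7), Irx1 (26.4) and Irx3 (24.5). In the knockdown the order by the same measure was Irx6 (28.9), Irx3 (27.4), Irx2 (25.01), Irx5 (24.4), Irx1 (24.2) and Irx4 (23.8). These orders rest on single peaks. Without the strongest peak of each gene, Irx1 had 28.4 reads per kb in the knockdown and headed that list, and Irx4 (28.2) passed Irx5 (27.8) in the control. No spread over libraries was at hand to say which neighbours in these orders differ. Peaks covered 36.1% of the window of Irx1, 35.4% of Irx2, 25.5% of Irx4, 24.6% of Irx3, 21.1% of Irx5 and 14.3% of Irx6.

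**Figure D2:**
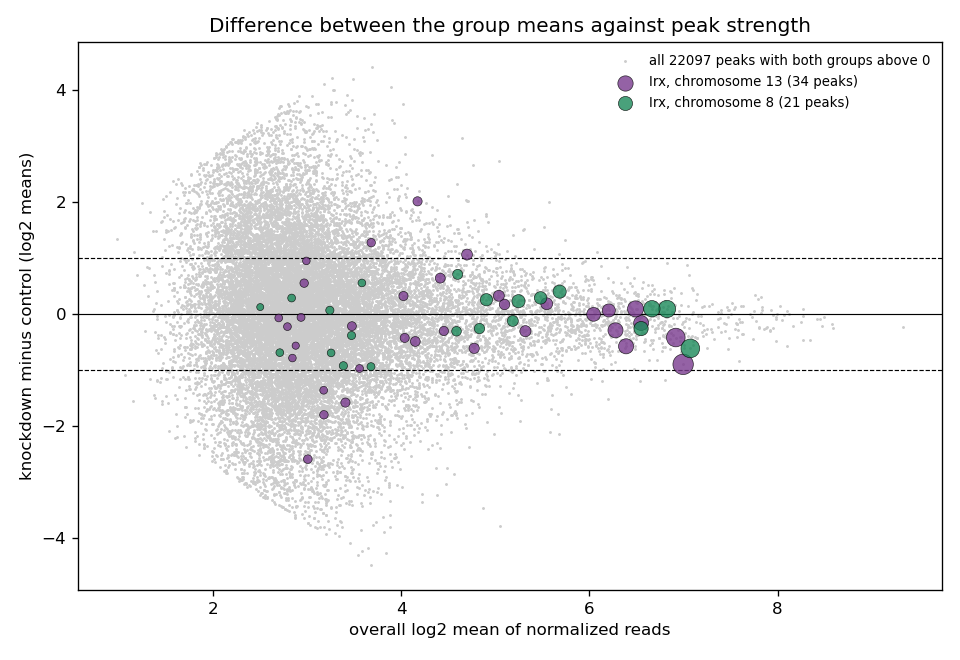
Difference between the group means (vertical axis, knockdown minus control on the log2 scale) against the overall log2 mean of normalized reads (horizontal axis). Grey dots are all 22097 peaks with both groups above 0, purple and green circles are the Irx peaks of chromosomes 13 and 8 with area growing with width, and dashed lines mark 2-fold; the 20 Irx peaks at an overall mean of 5 or more all lie between the dashed lines.

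The spread of the differences narrowed with peak strength, as it did over all peaks. The 20 Irx peaks with an overall log2 mean of at least 5 held 76.4% of the control reads, and their differences ran from -0.90 to 0.40 with 10 below and 10 above 0. Over all 1362 peaks of that strength, 95.7% lay within 2-fold, and 807 had a difference below 0 and 555 above 0. Of the 12 Irx peaks between 4 and 5, none was lower and 2 (16.7%) were higher past 2-fold, where the shares over all peaks of that strength were 13.3% and 7.62%. Of the 23 weaker ones with both groups above 0, 4 (17.4%) were lower and 1 (4.35%) was higher, where the shares over all peaks of that strength were 20.2% and 20.7%. Though the signs of the strong peaks were balanced, their summed knockdown reads were 88.3% of the control (92.9% over all such peaks), and the 3 with the most reads, at Irx5, Irx1 and Irx4, all had the lower knockdown mean.

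Irx peaks were wide and strong compared with the deposited list as a whole. Their median width was 758 bp against 426 bp, 13 of 57 (22.8%) reached 2 kb against 2.93% of all peaks, and 20 (35.1%) had an overall mean of at least 5 against 5.75%. This was not particular to Irx. With the same window, Hox peaks had a median width of 1390 bp, with 38.7% reaching 2 kb and 52.7% at that strength. For Dlx peaks the values were 765.5 bp, 14.6% and 31.3%, and for the other TALE genes 540 bp, 3.23% and 9.68%. The 13 wide Irx peaks summed to 84.2% of the control in the knockdown, 77.7% on chromosome 13 and 92.9% on chromosome 8, while the 44 narrower peaks summed to 102%. The chromosome 13 value (734 and 570 reads) leans on the widest Irx1 peak, which alone had 161.9 reads in the control and 86.6 in the knockdown. Wide peaks over all genes summed to 91.8%. The strong Irx peaks were richer in CpG than the weak ones, with a median of 3.78 CpG per 100 bases against 1.03 below an overall mean of 4, close to the 4.01 and 1.10 of all peaks in these classes. The widest Irx1 peak was an exception, with 1.01 CpG per 100 bases over 5526 bp, where the start peak next to it had 7.42.

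By position, the 5 peaks over gene starts were the most alike between the groups. Their differences lay between -0.29 and 0.09, and their sum was 101% of the control (447 and 449.7 reads). The 16 other peaks inside genes had the lower mean in the knockdown in 12 and the higher in 4, with none past 2-fold and a sum of 80.4% of the control (851 and 684 reads). Over all peaks with both groups above 0, the knockdown mean was the lower in 11229 and the higher in 10868. The 21 upstream peaks summed to 92.2%, with 2 lower and 2 higher past 2-fold and 1 listed at 0 in the control. The 15 downstream peaks summed to 108%, with 2 lower, 1 higher and 1 listed at 0 in the control. Both groups were above 0 in 20 upstream and 14 downstream peaks. Over all peaks 18.5% were lower, 18.4% higher and 3.28% listed at 0 in the control. The median log2 mean over all libraries was 6.49 at starts, 4.87 inside genes, 4.04 upstream and 3.24 downstream. Position and strength thus cannot be told apart here. A peak covered the start of 5 of the 6 Irx genes, against 1139 of 21951 protein-coding genes (5.19%).

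The signs of adjacent peaks were compared, with no such count over the whole list to set beside them. Among 48 pairs of neighbouring member peaks with both groups above 0, the differences had the same sign in 26 and opposite signs in 22. For the 26 pairs less than 500 bp apart the counts were 16 and 10. Such pairs may be pieces of the same domain, so they are not independent.

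**Figure D3:**
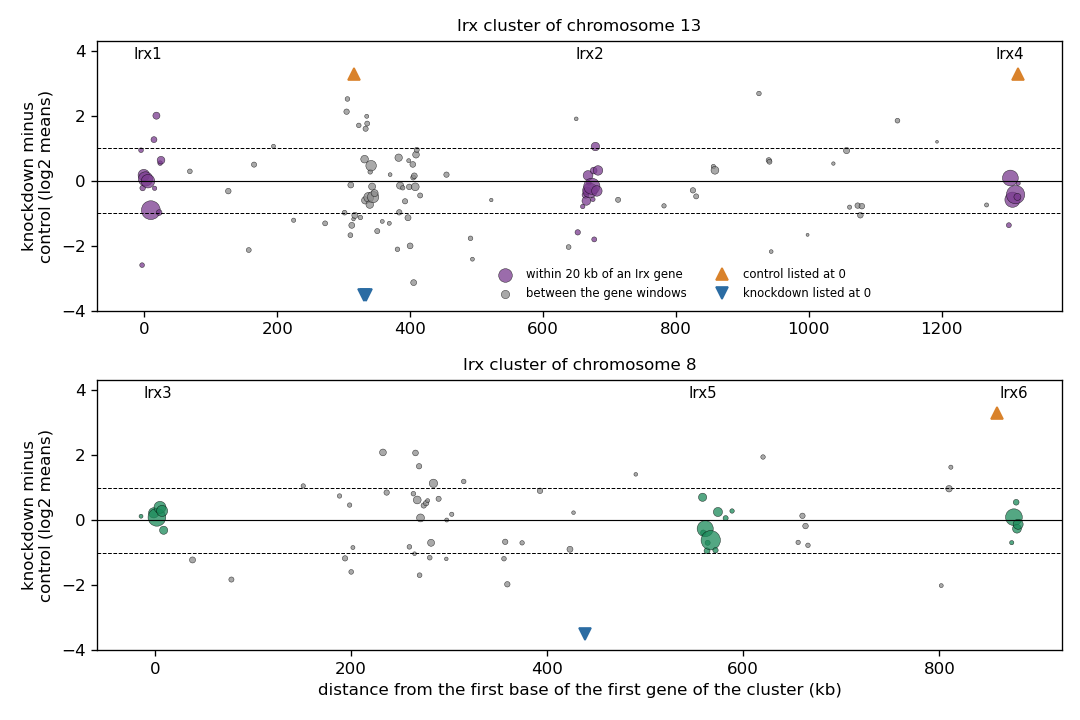
Difference between the group means (knockdown minus control, log2) along each Irx cluster, against distance in kb from the first base of its first gene. Circles grow with the overall mean, coloured within 20 kb of an Irx gene and grey in between; triangles, drawn at a fixed height, are peaks with a group listed at 0 (the 2 on chromosome 13 listed at 0 in the knockdown overlap), and the large circles stand at the genes while small ones past the dashed 2-fold lines fill the stretches between them.

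The stretches between the genes carried weaker H3K27me3, and a larger share of their peaks than of those in the gene windows lay past 2-fold. Neighbouring genes lay 665 kb (Irx1 to Irx2), 626 kb (Irx2 to Irx4), 556 kb (Irx3 to Irx5) and 298 kb (Irx5 to Irx6) apart, from the end of a gene body to the start of the next. Between the gene windows, chromosome 13 had 80 peaks and chromosome 8 had 46, with none reaching 2 kb. Of the 77 on chromosome 13 with both groups above 0, 21 (27.3%) were lower and 11 (14.3%) higher past 2-fold, and the sum over all 80 was 88.5% of the control. Of the 45 on chromosome 8, 11 (24.4%) were lower and 9 higher, and the sum over all 46 was 105%. Over all peaks the shares were 18.5% lower and 18.4% higher, and over those with an overall mean below 4 they were 20.2% and 20.7%. The median difference was -0.32 on chromosome 13 and 0.13 on chromosome 8. Only 3 of the peaks between the windows had an overall mean of at least 5, named here after their values were seen. They lay near each other between Irx1 and Irx2, at least 326584 bp from the nearest Irx start, at chr13:72294745-72296642 (5.36 in the control and 4.86 in the knockdown), chr13:72298370-72300155 (5.09 and 5.56) and chr13:72301437-72303035 (5.75 and 5.25). Near them lay peaks listed at 0 in a group, chr13:72273545-72274413 in the control (4.55 in the knockdown) and chr13:72288425-72288804 and chr13:72291816-72292391 in the knockdown (3.96 and 4.23 in the control). On chromosome 8, chr8:92236846-92237431 was listed at 0 in the knockdown with 4.16 in the control.

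**Figure D4:**
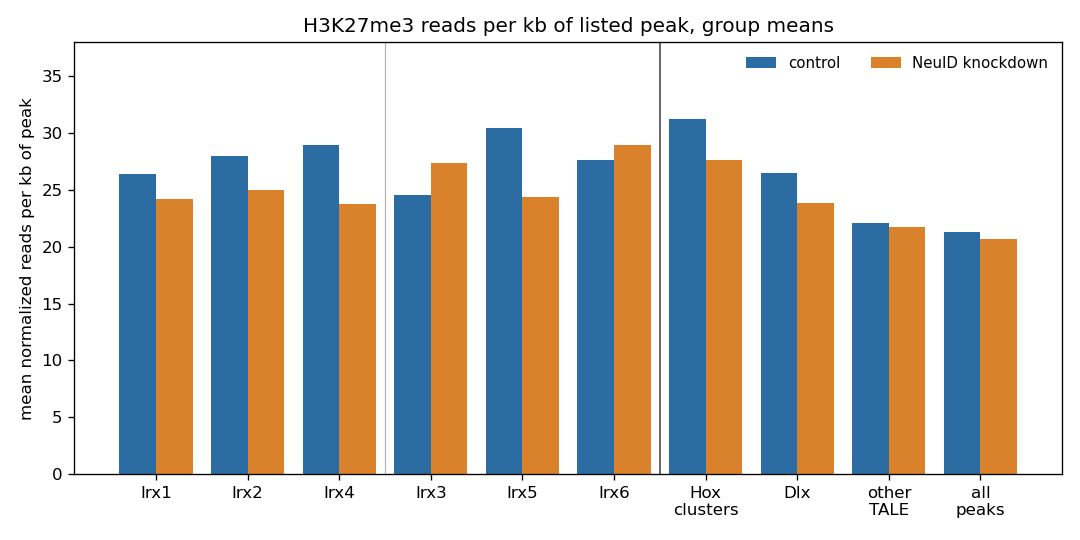
Mean normalized reads per kb of peak (vertical axis, from 0) in the control (blue) and the NeuID knockdown (orange) for each Irx gene and 3 other homeobox groups, with all peaks at the right; the bars are group means and carry no error. The blue bar is the taller at Irx1, Irx2, Irx4 and Irx5 and the orange bar at Irx3 and Irx6.

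With the same window, the Irx genes were close to the Dlx genes in the knockdown sum as a percent of the control. Control reads per kb were also close, though not the size of single differences. The 48 Dlx peaks summed to 90.3% of the control in the knockdown, against 91.1% for Irx. Control levels were 27.7 reads per kb of peak for Irx and 26.5 for Dlx. The Hox clusters were more heavily covered, with peaks over 79.0% of their windows against 25.9% for Irx, 31.3 control reads per kb, and a knockdown sum of 88.4% over 222 peaks. Past 2-fold, 8 of 47 Dlx peaks with both groups above 0 (17.0%) were lower and 0 higher, and of 221 Hox peaks 21 (9.50%) were lower and 12 (5.43%) higher, where the shares were 7.27% and 5.45% at Irx and 18.5% and 18.4% over all peaks. The median size of the difference without its sign was 0.39 at Irx, 0.42 at Hox and 0.55 at Dlx. No difference between the families was tested.

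The other TALE genes, which include the Meis and Pbx cofactors of Hox proteins, carried little of the mark. Only 7 of the 12 had a peak in their window, and peaks covered 1.32% of their windows. Those windows totalled 1.79e+06 bp, against 289186 bp for the 6 Irx genes, and the covered share depends on that length. The 31 peaks summed to 98.4% of the control. Of the 30 with both groups above 0, 3 were lower and 7 (23.3%) higher past 2-fold, against 18.5% and 18.4% over all peaks, and 1 more was listed at 0 in the knockdown. The higher peaks lay at Pbx3 (3), Meis1 (2), Meis2 (1) and Tgif1 (1), and the lower ones at Meis2, Pknox2 and Mkx (1 each). Pbx4 held the most reads of these genes, 195.9 in the control and 184.3 in the knockdown.

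Noncoding genes share the Irx windows, and reads over them cannot be told apart from those of the Irx domain. Irx3os, antisense to Irx3, started under the Irx3 start peak, Gm20554 under the Irx2 start peak, Gm40999 under chr13:71956311-71957862 (control 5.46, knockdown 5.64) and Gm48000 under chr13:73272904-73273290 (2.73 and 2.66). The starts of Crnde and Gm21817 near Irx5, Gm36380 near Irx3 and Gm45505 near Irx6 had no peak over them.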

How the data were processed

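Libraries were grouped as control or NeuID knockdown by their titles. Per the methods and labels, the authors aligned single-end reads with bowtie2 (build mm10), used MACS2 for broad peaks and DiffBind, with its DESeq2 option, for the group comparison. The authors deposited, for each peak, a log2 mean of normalized reads in each group and a further one across the libraries. Normalization, removal of duplicates, merging of peaks and input subtraction were not given in the sources used here. Means of at most 1 read appear as 0, and unstated subtraction of input reads could affect weak peaks most. Columns with the authors' fold change, p-value and FDR were not used. The number of unused per-sample columns was 0, and depth per library was not analysed here.

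The members and gene lists were chosen with earlier results of these data known. Gene bodies came from GENCODE M21 and were extended by 20 kb. Peaks were counted as lower or higher at a log2 difference of 1 where both groups were above 0, and peaks listed at 0 were counted apart, entered sums as 0 reads and got no fold. A mean listed at 0 was solved from the overall mean with the weight 0.545. Single peaks were named by rule: those over each gene start, the widest, the strongest, those with the lowest and highest difference, and those listed at 0; the further peaks past 2-fold, those beside the Irx5 start, other strong Irx peaks and the intergenic peaks were named after their values were seen. Comparison lists were 12 other TALE genes, 39 Hox and 6 Dlx genes, and a further list is not reported here. Alternatives were gene bodies alone, windows of 5 and 50 kb, the whole cluster, limits on strength and width, a 1.5-fold limit, assignment by peak centre and, added after seeing the data, leaving out the strongest peak. Scripts were tested on simulated data. Python 3.11.15, numpy 2.4.6, pandas 2.3.3, pysam 0.24.0 and matplotlib 3.10.9 were used.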

Additional observations from a re-analysis of the deposited data

How the results depend on the processing

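No value per library was analysed here, so no library could be left out and no error given. No paired analysis was possible because the deposited values are group means. With gene bodies alone (21 peaks), none was at least 2-fold lower or higher (0 each) and 0 were listed at 0 in the control, the chromosome 8 median difference turned to -0.26 and its summed knockdown reads to 87.4% of the control. Windows of 5 kb (42 peaks) gave a chromosome 8 median difference of -0.03, 3 lower peaks, 1 higher and 1 listed at 0 in the control. Windows of 50 kb (69 peaks) gave 6 lower and 7 higher. The whole cluster spans (183 peaks) gave 36 lower, 23 higher and 3 listed at 0 in the knockdown. Of span peaks with both groups above 0, 22.5% were lower and 12.6% higher on chromosome 13, with 16.7% and 13.6% on chromosome 8. Over all peaks these shares were 18.5% and 18.4%, and 3.35% were listed at 0 in the knockdown. With an overall log2 mean of at least 4 (32 peaks), the median difference over all Irx peaks turned to 0.0247, that of chromosome 13 was -0.0872, and 0 peaks were lower or listed at 0 in the control. A width of at least 500 bp left 0 listed at 0 in the control. A limit of 1.5-fold gave 13 lower and 6 higher of the 55 peaks with both groups above 0. The shares over all peaks at that limit are not given here, so these counts have no background to be set against. Leaving out the strongest peak of each cluster, an alternative chosen after seeing the data, moved the summed knockdown reads to 93.2% of the control on chromosome 13 and turned those of chromosome 8 to 103%. The 1.5-fold limit changes the calls over the same peaks and the other settings change which peaks enter, and no other cause was tested. The chromosome 13 median and sum kept their direction in every setting run. No setting left out all peaks of at least 2 kb. The 28 chromosome 13 peaks narrower than that summed to 103% of the control, with a median difference of -0.22. Weak peaks rest on few normalized reads and limit what a single difference shows.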
